A study of Mus musculus with 2 samples.

Results

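The collagen genes of mouse were examined in regenerating tibialis anterior muscle, a fast muscle of the lower hindlimb, of mice labelled as Mef2a knockout (Mef2a -/-) and of wild type mice (Mef2a +/+). Members were the genes whose symbol is Col, digits, a and digits, such as Col1a1, and which had a probe set annotated to that symbol alone. This gave 44 of 19938 genes. All mice were of mixed 129Sv/C57BL6 strain, of both sexes and 2 to 4 months old, and the muscle of both genotypes had been injected with 50 µl of 10 µM cardiotoxin 7 days before it was taken. Cardiotoxin, a peptide of snake venom, kills fibres while sparing the stem cells that form new ones. RNA of 5 mice per genotype was pooled, and each pool was hybridised to 1 array. There were thus 2 arrays in all and no replicates, so no spread between mice or arrays can be estimated, no test was possible and no p-value is given. Neither the deleted part of Mef2a nor its extent over tissues is stated in the labels.

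Collagens are the main structural proteins of the extracellular matrix. Each molecule is built of chains that wind around each other into a triple helix, which requires glycine at regular spacing along the chain, and the chains of a molecule can come from 1 gene or from several. Fibrillar collagens form the banded fibres that give connective tissue its strength, and the FACIT collagens (fibril-associated collagens with interrupted triple helices) sit on the surface of such fibres. Type IV collagen forms the sheet-like network of basement membranes, which wraps every muscle fibre and capillary, and type VI collagen forms beaded filaments just outside that membrane. Transmembrane collagens stay anchored in the cell surface. After muscle injury, fibroblasts and related progenitor cells lay down collagen that is remodelled as new fibres grow.

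Values are log2 RMA values, 1 per gene and array, and a difference is the value of the labelled knockout pool minus that of the wild type pool, also log2, so that 0.58 is 1.5-fold. Genes with at least 1 of their values at or above 4.40, which is the median over the whole table, were called measurable, and 11787 were. Mef2a itself read 9.06 in the labelled knockout pool and 8.92 in the wild type pool. The files do not place its probes relative to the deletion, so Mef2a does not check the labels, and the direction of every difference below rests on them. All 10 markers of the mature muscle fibre lay far above that floor, at 10.10 to 12.52 in the labelled knockout pool and 10.41 to 12.56 in the wild type pool. Macrophage markers were higher in the labelled knockout pool for 10 of 10 genes, all past 1.5-fold, against 6.45% of all measurable genes as far higher. Their mean log2 value was 8.32 in the labelled knockout pool and 7.07 in the wild type pool. The largest of these differences were 2.11 for Msr1, 1.80 for Itgam and 1.61 for Cd14. Because the muscle is a mixture, more cells of a type and more RNA per cell cannot be told apart in any of these values.

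Most collagen genes differed little between the pools. Of the 44 genes, 37 were measurable. Of these, 3 were at least 1.5-fold higher in the labelled knockout pool, namely Col11a1, Col8a1 and Col12a1, 0 were 1.5-fold lower, and 0 passed 2-fold in either direction, against 1.7% higher and 0.187% lower among all measurable genes. The 3 genes are 8.11% of the measurable collagens, close to the 6.45% of all 11787 measurable genes that were as far higher, and 1.9% of all measurable genes were 1.5-fold lower. The share of collagens past the limit is therefore no result about collagens as a family. The median difference over the 37 genes was 0.02, against 0.03 over all measurable genes, and 19 collagens read higher and 18 lower in the labelled knockout pool. Within the family, members differed by class and by signal. Class and signal overlap, since most FACIT and all measurable transmembrane genes had a mean under 6, and they were not separated here. Just under the limit lay Col6a2 at 0.58 (1.49-fold) and Col6a1 at 0.52 (1.44-fold).

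**Figure D1:**
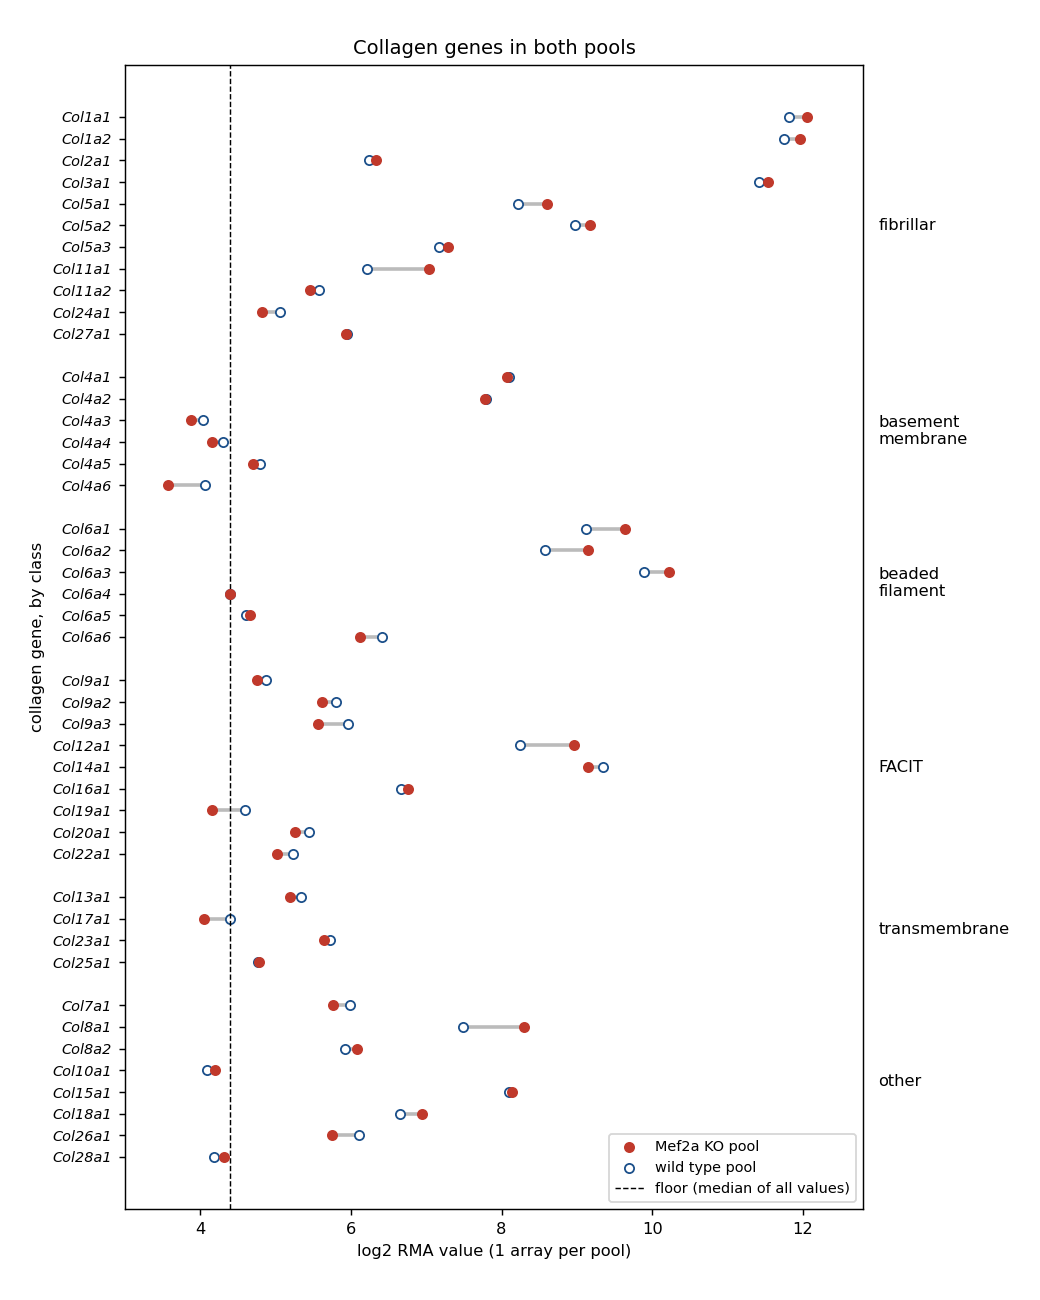
Log2 RMA value (x axis) of each of the 44 collagen genes (rows, by class) in the Mef2a KO pool (filled) and the wild type pool (open), 1 array each, with the floor of 4.40 as a dashed line. The widest gaps are those of Col11a1 and Col8a1, with the labelled knockout pool higher, and 7 genes lie left of the floor in both pools.

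Fibrillar collagens were slightly higher in the labelled knockout pool for 8 of 11 genes, all 11 being measurable, with a median difference of 0.12 against 0.03 over all measurable genes. Only Col11a1 passed 1.5-fold. Over all measurable genes, 53.3% read higher in the labelled knockout pool. The main fibre-forming genes were close between the pools. Col1a1, the alpha 1 chain of type I collagen, read 12.05 in the labelled knockout pool and 11.82 in the wild type pool. Its partner chain Col1a2 read 11.97 in the labelled knockout pool and 11.75 in the wild type pool. The differences were 0.23 for Col1a1 and 0.22 for Col1a2, so that the chains of type I collagen were alike to within 0.013. Col3a1, the single chain of type III collagen, which is laid down early in healing tissue, read 11.54 in the labelled knockout pool and 11.42 in the wild type pool, a difference of 0.12. All 3 differences were under 0.3, far from the limit.

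Type V collagen nucleates type I fibres and limits their width. Col5a1 read 8.60 in the labelled knockout pool and 8.21 in the wild type pool (0.39). Col5a2, which lies next to Col3a1 on chromosome 1 with no other protein-coding gene between, read 9.18 in the labelled knockout pool and 8.97 in the wild type pool (0.21), and Col5a3, a less common chain, read 7.29 in the labelled knockout pool and 7.17 in the wild type pool (0.12). All 3 type V chains were thus higher in the labelled knockout pool, none by 1.5-fold. Type XI collagen is the equivalent in cartilage and is made of the products of Col11a1, Col11a2 and Col2a1. Col11a1 had the largest difference of any collagen, reading 7.04 in the labelled knockout pool and 6.21 in the wild type pool, 1.77-fold higher. Its partner chains were close between the pools. Col11a2 read 5.46 in the labelled knockout pool and 5.58 in the wild type pool (-0.12), and Col2a1, the type II cartilage collagen, read 6.34 in the labelled knockout pool and 6.24 in the wild type pool (0.10). The chains of that molecule were spread over 0.94, the widest range of the 8 chain sets compared. Of the remaining fibrillar genes, which are expressed in the skeleton and developing tissues, Col24a1 read 4.83 in the labelled knockout pool and 5.07 in the wild type pool (-0.24), and Col27a1 read 5.94 in the labelled knockout pool and 5.95 in the wild type pool (-0.01).

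The stretch around the annotated start of Col11a1 is shown because this gene had the largest difference of the family. It lies at chr3:114030290-114030589 on the plus strand (GRCm38.p6, RefSeq), 250 bases before to 50 after the start, and capitals mark a CCAAT box match (CCAAT, read here on the other strand) and a pair of GC box matches (GGGCGG).
Col11a1: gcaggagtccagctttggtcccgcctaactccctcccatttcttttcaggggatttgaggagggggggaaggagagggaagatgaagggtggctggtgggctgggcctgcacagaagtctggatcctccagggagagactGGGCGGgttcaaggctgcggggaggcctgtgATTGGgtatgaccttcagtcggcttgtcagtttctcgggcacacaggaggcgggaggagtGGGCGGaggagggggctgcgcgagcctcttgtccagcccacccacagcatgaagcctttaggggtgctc

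The basement membrane collagens were close between the pools. Of 6 type IV genes, 3 were measurable, none was past 1.5-fold, and their median was -0.02. With differences centred on the median of all 19938 genes, -0.03 with those below the floor included, it was 0.0098. Col4a1 and Col4a2 encode the type IV chains of nearly all basement membranes, including those of fibres and capillaries. Col4a1 read 8.08 in the labelled knockout pool and 8.09 in the wild type pool. Col4a2 read 7.77 in the labelled knockout pool and 7.79 in the wild type pool. Both differences were -0.02, and they agreed to within 0.0028, the narrowest range of the 8 chain sets. Col4a5, a chain found mainly in kidney and a few other membranes, read 4.70 in the labelled knockout pool and 4.80 in the wild type pool (-0.10). Col4a3, Col4a4 and Col4a6 lay below the floor in both pools, at 3.87, 4.16 and 3.58 in the labelled knockout pool and at 4.04, 4.30 and 4.06 in the wild type pool, so no fold is given. Of 8 endothelial markers, whose cells make type IV collagen, 3 read higher, 4 lower and 1 the same in the labelled knockout pool, with a median of -0.02. The exception in size was Vwf, von Willebrand factor, at 6.32 in the labelled knockout pool and 5.48 in the wild type pool, 1.79-fold higher. It was the only endothelial marker past 1.5-fold (12.5%, against 6.45% of all measurable genes).

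Col4a1 and Col4a2 lie head to head on chromosome 8 and are transcribed in opposite directions from a common promoter region. Their starts are shown because the pair was so close in these data. The window of Col4a1 is chr8:11312777-11313076 on the minus strand and that of Col4a2 is chr8:11312555-11312854 on the plus strand (GRCm38.p6, RefSeq), each read 5′ to 3′ on its own strand. Capitals mark the 78 bases that both windows hold, which are each other's reverse complement.
Col4a1: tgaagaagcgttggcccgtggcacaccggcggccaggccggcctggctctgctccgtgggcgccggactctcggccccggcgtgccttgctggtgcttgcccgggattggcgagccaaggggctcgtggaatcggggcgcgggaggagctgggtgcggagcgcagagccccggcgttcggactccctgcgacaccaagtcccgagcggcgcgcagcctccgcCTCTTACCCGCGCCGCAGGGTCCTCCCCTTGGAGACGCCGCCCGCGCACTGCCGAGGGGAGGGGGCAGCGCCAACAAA
Col4a2: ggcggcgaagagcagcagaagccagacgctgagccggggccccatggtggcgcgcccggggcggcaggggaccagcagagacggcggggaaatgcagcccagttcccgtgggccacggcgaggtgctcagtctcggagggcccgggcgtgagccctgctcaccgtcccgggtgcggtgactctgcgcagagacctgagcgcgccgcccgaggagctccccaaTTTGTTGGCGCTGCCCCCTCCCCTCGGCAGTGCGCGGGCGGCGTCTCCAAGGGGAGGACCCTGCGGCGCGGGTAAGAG
Those shared bases hold a GC box match, and neither window has a match to the TATA box (TATAAA).

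The beaded filament collagens had the highest class median, 0.34 over 5 measurable genes of 6, against 0.03 over all measurable genes. Without a floor it was 0.20 over all 6. The main type VI chains differed together. Col6a1 read 9.65 in the labelled knockout pool and 9.12 in the wild type pool, 1.44-fold higher. Col6a2 read 9.15 in the labelled knockout pool and 8.57 in the wild type pool, 1.49-fold higher. Col6a3 read 10.23 in the labelled knockout pool and 9.89 in the wild type pool, 1.26-fold higher. All 3 chains were thus higher in the labelled knockout pool, and none reached 1.5-fold. They combine into 1 molecule that links the basement membrane to the matrix and to muscle stem cells. Col6a2 passed 1.5-fold (0.61) only with differences centred on the median of all 19938 genes, -0.03, which includes genes below the floor. With the loess trend removed Col6a2 was at 0.55. In the range of mean signal where these 3 lie, 8 and above, 9.02% of measurable genes were past 1.5-fold and higher. All 3 main chains were past a lower limit of 0.32 on the log2 scale. In the same range, 20% of measurable genes were as far higher. The class median rests on those chains, since the other type VI genes did not follow. Col6a5 read 4.66 in the labelled knockout pool and 4.61 in the wild type pool (0.05), close to the floor. Col6a6 read lower, at 6.12 in the labelled knockout pool and 6.41 in the wild type pool (-0.30). Col6a4 read 4.39 in both pools, just below the floor, exactly equal as were 1179 of the 19938 genes. Col6a4, Col6a5 and Col6a6 encode chains that can take the place of the Col6a3 chain and lie in a row on chromosome 9.

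Col6a5 and Col6a6 were the only collagens with 2 probe sets, the closest these arrays come to a repeat measurement, although both read the same RNA. The second probe set of Col6a6 read 5.25 in the labelled knockout pool and 5.80 in the wild type pool, a difference of -0.55, in the same direction as the -0.30 of the first. The second of Col6a5 read 3.18 in both pools, below the floor. The other 42 genes had 1 probe set each, and 0 collagen probe sets were shared with another symbol.

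Col6a1 and Col6a2 are neighbours on chromosome 10, both on the minus strand, with no other protein-coding gene between. Their starts are shown because they differed by nearly the same amount, 0.52 and 0.58. The window of Col6a1 is chr10:76725995-76726294 and that of Col6a2, the downstream of its 2 annotated starts, is chr10:76623355-76623654 (GRCm38.p6, RefSeq). Capitals mark an AP-1 match (TGANTCA) in Col6a1 and GC box matches in Col6a2, of which the last pair overlaps.
Col6a1: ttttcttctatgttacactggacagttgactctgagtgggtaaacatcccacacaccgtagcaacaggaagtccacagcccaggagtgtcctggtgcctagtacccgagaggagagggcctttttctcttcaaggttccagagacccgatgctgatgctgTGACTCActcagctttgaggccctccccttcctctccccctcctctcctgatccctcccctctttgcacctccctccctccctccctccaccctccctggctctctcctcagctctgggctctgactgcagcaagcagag
Col6a2: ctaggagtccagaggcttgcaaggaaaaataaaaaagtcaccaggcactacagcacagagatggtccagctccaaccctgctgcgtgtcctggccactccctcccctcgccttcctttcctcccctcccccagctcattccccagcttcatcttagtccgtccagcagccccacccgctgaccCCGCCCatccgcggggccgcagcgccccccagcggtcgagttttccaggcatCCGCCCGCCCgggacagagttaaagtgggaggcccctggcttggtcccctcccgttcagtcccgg
The windows share none of the 5 motifs searched.

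FACIT collagens read lower in the labelled knockout pool for 7 of 9 genes, all 9 being measurable, but most lay near the floor. Of all 11787 measurable genes 5245 read lower, as did 2659 of the 5325 with a mean under 6. The class median was -0.19, or 0.087 over the 3 genes left with a floor of 6.18, the 75th percentile. With the floor on the mean, which left 8 genes and dropped Col19a1, the median was also -0.19. Col12a1 and Col16a1 were the FACIT genes that read higher. Col12a1 encodes a FACIT chain of tendon, fascia and stressed connective tissue and read 8.96 in the labelled knockout pool and 8.25 in the wild type pool, 1.63-fold higher. Col14a1, the chain most like it and also found on type I fibres, read 9.14 in the labelled knockout pool and 9.35 in the wild type pool, a difference of -0.20. These bright FACIT genes therefore lay on opposite sides of 0, by 0.71 and -0.20. Col16a1, a minor FACIT of connective tissue, read 6.75 in the labelled knockout pool and 6.67 in the wild type pool (0.09).

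Type IX collagen belongs to cartilage, and its 3 chains read lower in the labelled knockout pool. Col9a1 read 4.76 in that pool and 4.88 in the wild type pool (-0.12), Col9a2 read 5.62 in the labelled knockout pool and 5.81 in the wild type pool (-0.19), and Col9a3 read 5.56 in the labelled knockout pool and 5.96 in the wild type pool (-0.40). None was 1.5-fold lower. Col22a1, a collagen of the junction between muscle and tendon, read 5.01 in the labelled knockout pool and 5.23 in the wild type pool (-0.22). Col20a1 read 5.27 in the labelled knockout pool and 5.45 in the wild type pool (-0.19). Col19a1, which is made by differentiating muscle cells and some neurons, had the lowest difference of the measurable collagens, at 4.15 in the labelled knockout pool and 4.59 in the wild type pool (-0.44). It counted as measurable only through its wild type value, so its size is poorly bounded.

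Transmembrane collagens were near the floor and close between the pools. Of 4 genes, 3 were measurable, none was past 1.5-fold, and the median was -0.08. Col13a1, which stabilises the neuromuscular junction, read 5.20 in the labelled knockout pool and 5.34 in the wild type pool (-0.15). Col25a1, which motor axons need to enter developing muscle, read 4.79 in the labelled knockout pool and 4.77 in the wild type pool (0.02). Col23a1 read 5.65 in the labelled knockout pool and 5.72 in the wild type pool (-0.08). Col17a1, the hemidesmosome collagen of skin, lay below the floor at 4.05 in the labelled knockout pool and 4.39 in the wild type pool. Of 6 keratinocyte markers 5 were also below the floor, and Trp63 read 5.88 in the labelled knockout pool and 6.37 in the wild type pool.

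The 8 collagens outside these classes included a large difference in 1 gene. Col8a1 encodes a short-chain collagen that vascular and injured tissues deposit. It read 8.30 in the labelled knockout pool and 7.49 in the wild type pool, 1.75-fold higher. Its partner Col8a2 read 6.08 in the labelled knockout pool and 5.93 in the wild type pool (0.15), so the chains differed by 0.66. Col18a1, the source of the endostatin fragment in vessel basement membranes, read 6.95 in the labelled knockout pool and 6.66 in the wild type pool (0.29), and its relative Col15a1, of capillaries and fibre membranes, read 8.13 in the labelled knockout pool and 8.11 in the wild type pool (0.03). Col7a1, the anchoring fibril collagen of skin, read 5.76 in the labelled knockout pool and 5.99 in the wild type pool (-0.23). Col26a1 read 5.75 in the labelled knockout pool and 6.10 in the wild type pool (-0.36). Col10a1, of growth plate cartilage, and Col28a1, of peripheral nerve, were below the floor, at 4.20 and 4.32 in the labelled knockout pool and 4.09 and 4.19 in the wild type pool. The class had 6 measurable genes and a median of 0.09.

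The start of Col8a1 is shown because its difference was the next largest after that of Col11a1. Its window is chr16:57754688-57754987 on the minus strand (GRCm38.p6, RefSeq), and capitals mark 4 GC box matches.
Col8a1: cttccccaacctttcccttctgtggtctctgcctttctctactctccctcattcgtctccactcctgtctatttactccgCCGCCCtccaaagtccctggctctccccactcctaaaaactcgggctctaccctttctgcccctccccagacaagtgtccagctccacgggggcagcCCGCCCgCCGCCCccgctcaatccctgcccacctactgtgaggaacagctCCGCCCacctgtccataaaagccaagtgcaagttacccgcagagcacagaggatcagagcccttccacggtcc

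Over the whole family, RefSeq start windows of 300 bases were found for 35 of the 44 genes, 38 windows in all. Col1a1, Col2a1, Col4a3, Col5a2, Col9a3, Col12a1, Col14a1, Col22a1 and Col26a1 had none, so the shares below do not cover them. Col6a2, Col9a1 and Col18a1 had more than 1 window. Searched on both strands, the GC box occurred in 23 of the 38 collagen windows (60.5%), against 35.7% of all 32851 windows of that length. The CCAAT box occurred in 34.2% of collagen windows and 37.4% of all, and the TATA box in 5 of 38 and in 13.6% of all. AP-1 matches occurred in 1 collagen window, that of Col6a1 (2.63%, against 7.81% of all). The MEF2 motif, the site that MEF2A binds, occurred in 1 collagen window, that of Col13a1 (2.63%, against 3.19% of all), where it overlaps a TATA box match. These are matches of letters in a short window and say nothing of binding.

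**Figure D2:**
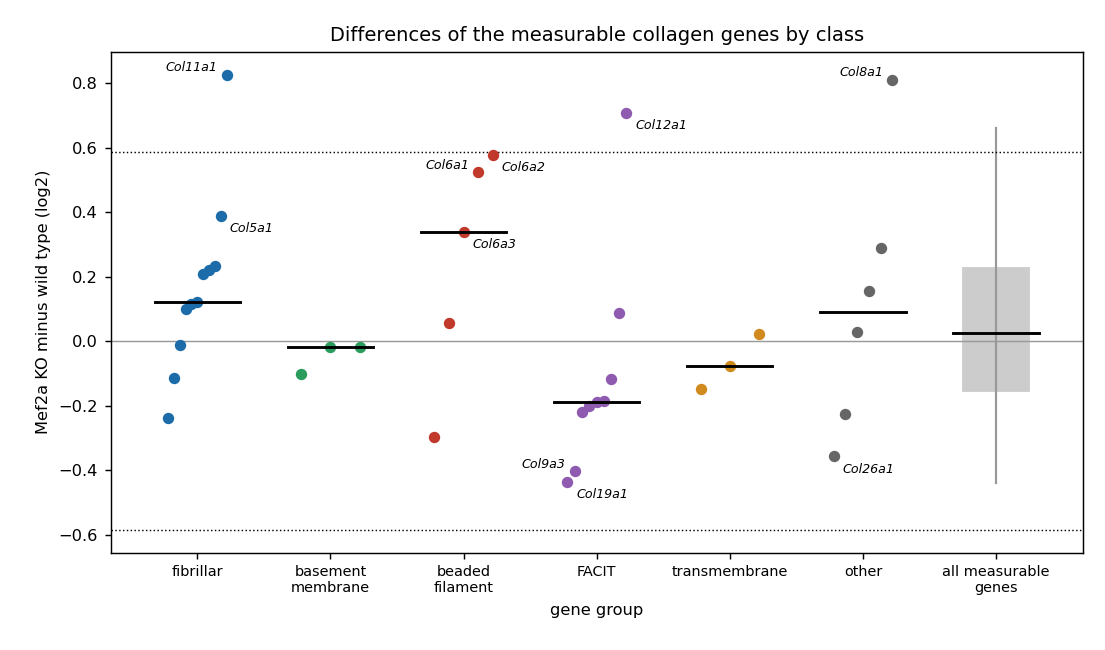
Difference between the Mef2a KO and wild type pools (y axis, log2) of the 37 measurable collagens by class (points), with the class median as a bar. At the right, the box spans the 25th to 75th percentile and the line the 5th to 95th of all 11787 measurable genes, and dotted lines mark 1.5-fold. Col11a1, Col12a1 and Col8a1 lie above the upper dotted line and no collagen lies below the lower one.

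The direction of the differences went with signal. Of 12 collagens with a mean of 8 or above, 10 read higher in the labelled knockout pool, and their median was 0.23, against 54.4% and a median of 0.03 for all 1186 genes in that range. Only Col14a1 and Col4a1 read lower. Of 9 collagens with a mean between 6 and 8, 7 read higher (median 0.12, against 59.9% and 0.07 for all genes there). Of 16 measurable collagens with a mean under 6, 2 read higher, Col6a5 and Col25a1, and their median was -0.17, against 46.6% and 0.00 for all genes there. These ranges were chosen after the values were seen. With the loess trend of all genes on mean signal removed, the medians were 0.27 for the bright, 0.059 for the middle and -0.17 for the dim collagens. The family median near 0 thus combines bright genes that were slightly higher with dim genes that were slightly lower.

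**Figure D3:**
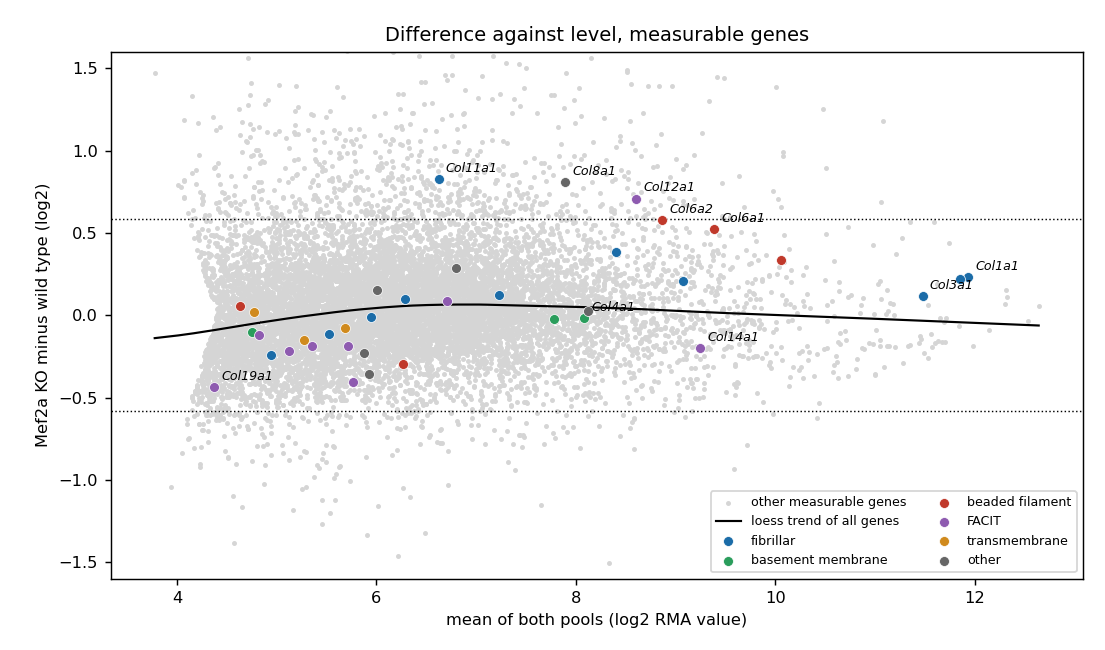
Difference between the pools (y axis, log2, Mef2a KO minus wild type) against the mean of both pools (x axis, log2 RMA value) for measurable genes (grey) and collagens (coloured by class). The black line is the loess trend, dotted lines mark 1.5-fold, and 40 genes lie outside the plotted range. Bright collagens at the right lie mostly above 0 and dim ones at the left mostly below.

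Cell type markers were read beside these values, and their part in the collagen differences was not tested. Of 10 fibroblast and fibro-adipogenic progenitor markers, all measurable, 1 was past 1.5-fold, being higher (10%, against 6.45% of all measurable genes), and the median was 0.06. That gene was Cxcl14, at 8.29 in the labelled knockout pool and 7.49 in the wild type pool. The progenitor receptor Pdgfra read 8.24 in the labelled knockout pool and 8.20 in the wild type pool. Fibroblast markers thus differed by less than macrophage markers, whose median was 1.09. Of 7 measurable tendon and cartilage markers of 9, 6 read higher in the labelled knockout pool, against 53.3% of all measurable genes, and the median was 0.21. Of the 7, 1 was past 1.5-fold and higher (14.3%, against 6.45% of all measurable genes). That was Fmod (7.40 in the labelled knockout pool, 6.76 in the wild type pool). Scx, a tendon transcription factor, was the one that read lower (6.30 in the labelled knockout pool, 6.78 in the wild type pool). Acan, the main cartilage proteoglycan, lay below the floor at 3.38 in the labelled knockout pool and 3.10 in the wild type pool. Mural cell markers had a median of 0.0047, with Pdgfrb at 0.65 and Abcc9 at -0.58. Of 5 measured nerve markers, 2, Sox10 and Cdh19, lay below the floor, and the other 3 had a median of 0.04, or -0.19 over all 5. Mbp, a myelin protein, read 4.95 in the labelled knockout pool and 4.48 in the wild type pool (0.46). The 10 fibre markers all read lower in the labelled knockout pool, by a median of -0.16, none past 1.5-fold. Over all measurable genes, 53.3% read higher there. With the loess trend removed the fibre median was -0.12, and Acta1 turned to 0.02.

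Genes that fold and modify collagen chains in the endoplasmic reticulum mostly read higher in the pool labelled as knockout. Of 21 measurable genes, 19 read higher, against 53.3% of all measurable genes, or 59.9% of those with a mean between 6 and 8. At least 1.5-fold higher were 4 (19.0%, against 6.45% of all measurable genes). As far lower were 0, against 1.9%. The list's median was 0.33, against 0.03 over all measurable genes. Plod3, a lysyl hydroxylase that also adds sugars to collagen, read 7.27 in the labelled knockout pool and 6.49 in the wild type pool (1.71-fold). P4ha3, a catalytic subunit of the prolyl hydroxylase that stabilises the helix, read 6.32 in the labelled knockout pool and 5.59 in the wild type pool (1.66-fold). Plod2, whose product shapes the crosslinks of scar collagen, read 7.57 in the labelled knockout pool and 6.93 in the wild type pool (1.56-fold), and P3h4, a partner of the lysyl hydroxylase complex, read 6.25 in the labelled knockout pool and 5.64 in the wild type pool (1.53-fold). With the loess trend removed, Plod2 and P3h4 were just under 1.5-fold (0.58 and 0.57) and 2 genes of the list remained past it. Serpinh1, the collagen chaperone HSP47, read 7.59 in the labelled knockout pool and 7.33 in the wild type pool (0.26).

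Among genes that process procollagen and crosslink the fibres, 7 of 9 measurable genes read higher, 1 was past 1.5-fold and the median was 0.42. That is 11.1% past 1.5-fold, against 6.45% of all measurable genes, of which 53.3% read higher. Loxl3, a lysyl oxidase that crosslinks collagen and elastin, read 7.72 in the labelled knockout pool and 6.59 in the wild type pool, 2.19-fold higher. Lox, the founding member of that enzyme family, read 8.08 in the labelled knockout pool and 7.53 in the wild type pool (0.55). Tll1, a protease that removes procollagen ends, read 4.58 in the labelled knockout pool and 4.00, below the floor, in the wild type pool (0.57, or 0.67 with the loess trend removed, which is past 1.5-fold). Tll1 was measurable only through its value in the labelled knockout pool, so its size is poorly bounded. With the floor on the mean, which left 8 genes, the list's median was 0.35. Without a floor the median was 0.29 over 11 genes.

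Genes that break collagen down held the largest differences of the 4 pathway lists. Of 12 measurable genes, 5 were past 1.5-fold (41.7%, against 6.45% of all measurable genes), all higher. Past 2-fold were 4 of them (33.3%, against 1.7% of all measurable genes). None was 1.5-fold lower, against 1.9%, and the median was 0.46, against 0.03 over all measurable genes. Mmp9, a gelatinase, read 8.75 in the labelled knockout pool and 5.16 in the wild type pool. Ctsk, the cathepsin that cuts the collagen helix in bone, read 9.67 in the labelled knockout pool and 7.72 in the wild type pool (3.87-fold). Mmp12, a macrophage elastase, read 9.25 in the labelled knockout pool and 7.77 in the wild type pool (2.79-fold), and the lysosomal cathepsins Ctsl and Ctsb were 2.62-fold and 1.86-fold higher. Several of these are macrophage genes, and the macrophage list had a median of 1.09 in the same RNA, whose part in this was not tested. The interstitial collagenase Mmp13 read 8.28 in the labelled knockout pool and 8.49 in the wild type pool (-0.21), and Mmp2, a gelatinase of fibroblasts, read 9.98 in the labelled knockout pool and 10.03 in the wild type pool (-0.04). Mmp8, the neutrophil collagenase, lay below the floor at 2.11 in the labelled knockout pool and 2.07 in the wild type pool. Of 8 collagen receptors, 1 was past 1.5-fold (12.5%, against 6.45% of all measurable genes), the integrin chain Itga2, at 4.87 in the labelled knockout pool and 4.15, below the floor, in the wild type pool, and the list's median was 0.25. It was measurable only through its value in the labelled knockout pool, and with the floor at 6.18, which left 4 receptors, 0 were past the limit and the median was 0.088. Itgb1, its partner chain, read 9.71 in the labelled knockout pool and 9.54 in the wild type pool.

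**Figure D4:**
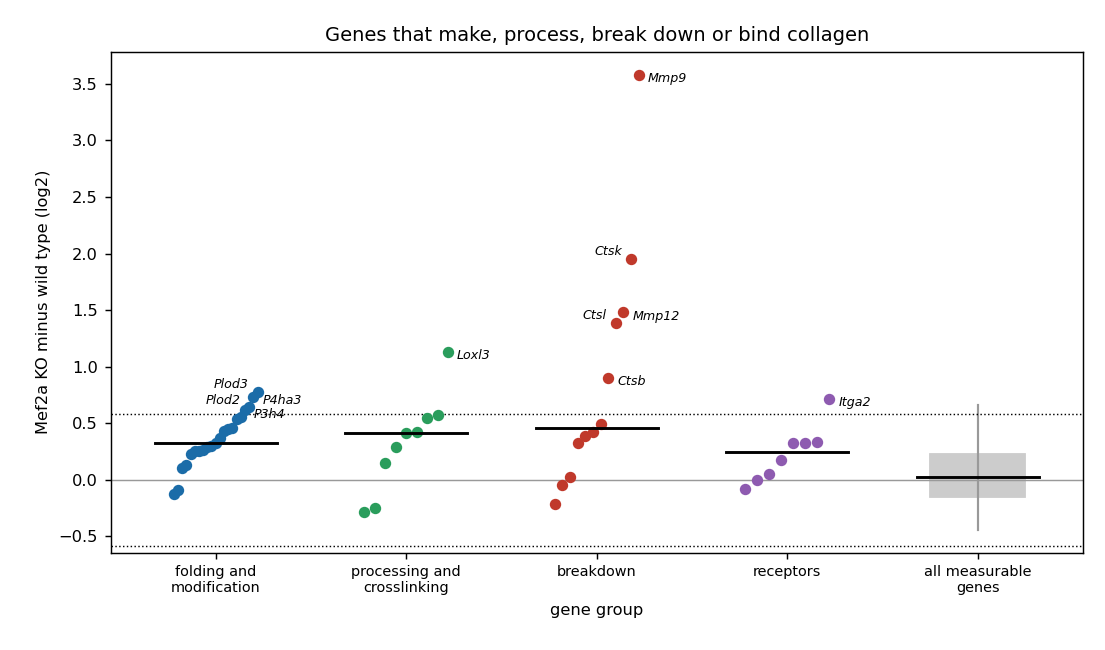
Difference between the Mef2a KO and wild type pools (y axis, log2) for measurable genes of 4 collagen pathway lists (points, median as a bar), with all measurable genes at the right drawn as a box from the 25th to the 75th percentile and a line from the 5th to the 95th. Dotted lines mark 1.5-fold, and Mmp9, Ctsk, Mmp12, Ctsl and Ctsb stand above the upper one in the breakdown list.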

How the data were processed

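Total RNA of 5 injured muscles per genotype was extracted with Trizol and pooled, per the labels' protocols, and each pool was hybridised as biotin-labelled target to 1 array. The deposited values are log2 values that the authors made by RMA (program: Affymetrix Expression Console), as the submitters' processing notes list. RMA corrects background, normalizes by quantiles and summarises probes. No version is given in those notes. After sorting, the arrays differ by at most 0.139, so a change shared by most genes cannot be seen. The number of arrays limits the precision.

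Values were used as deposited in Python 3.11.15 (pandas 2.3.3, numpy 2.4.6, statsmodels 0.14.6, matplotlib 3.10.9). Of 35557 probe sets, 21789 had 1 symbol in the platform annotation, 1621 several and 12147 none. The probe set of highest mean stood for a gene. All 44 collagens matched the RefSeq table of GRCm38.p6 by gene ID. The files name no genome build, so start windows are credited to that table. Genes were counted past 1.5-fold and 2-fold in each direction, a description without replicates. The counting was checked on simulated data. Members, classes and lists were chosen with earlier results of these data known. Every collagen is named, of each pathway list the members past 1.5-fold, and of the marker lists up to 3 members with the largest differences. Others named were chosen after their values were seen. Fkbp10, Adamts2, Loxl2 and Gp6 have no probe set annotated to them alone and were not analysed here. Alternatives were median centring, a loess trend (span 0.3), the mean of probe sets, other floors and other fold limits. Centring used the median of all 19938 genes, -0.03, and put 59.3% of measurable genes above 0.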

Additional observations from a re-analysis of the deposited data

How the results depend on the processing

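The count of 3 collagens at least 1.5-fold higher and 0 lower held under the following alternatives, but out of different numbers of genes. Without a floor it was out of 44 collagens, against 4.25% of all genes as far higher. With the floor raised to 6.18 it was out of 20 (8.4% of all genes there), and with the floor on the mean out of 36 (6.34%). After removing a loess trend it was out of 37 (5.85%), and with probe sets averaged out of 36 (6.41%). Median centring added Col6a2 and gave 4 of 37 higher, against 7.03% of all measurable genes. At the lowest fold limit tried (0.32 on the log2 scale), 7 were higher and 3 lower, against 16.7% and 10.3% of all measurable genes, and at 2-fold 0 were higher. The median over all measurable collagens, 0.02, was -0.021 after removal of the loess trend, -0.0064 without a floor and 0.21 over the 20 genes left with a floor of 6.18, so it has no settled sign or size. Likewise the basement membrane median of -0.02 turned to 0.0098 with median centring, and the FACIT median of -0.19 turned to 0.087 with the higher floor. Without a floor the basement membrane median was -0.12 and the beaded filament median 0.20. With the higher floor the fibrillar median was 0.21 and that of the collagens outside the classes 0.29. At the main floor the median of the latter, over 6 genes, was 0.09, or 0.044 after removal of the loess trend. Of the 37 single differences, 33 kept their sign and 36 their side of 1.5-fold under centring, the loess trend and the mean of probe sets, and none moved by more than 0.127. No collagen symbol shared a probe set with another, so adding such probe sets could not be tried. No paired analysis was possible because each genotype has 1 array.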

Other observations

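Proteins that carry a collagen-like helix without being named collagens were read as a list chosen after the data were seen. Of 35 such genes, 34 had a probe set of their own and 23 were measurable. Of these, 6 were past 1.5-fold and higher in the labelled knockout pool (26.1%, against 6.45% of all measurable genes). As far lower was 1 gene, against 1.9% of all measurable genes, and the median was -0.12, against 0.03. The complement chains C1qa, C1qb and C1qc, which macrophages make, read 9.14, 9.32 and 9.52 in the labelled knockout pool and 8.17, 8.52 and 8.63 in the wild type pool. Msr1, a macrophage scavenger receptor, read 7.34 in the labelled knockout pool and 5.24 in the wild type pool, and Colec12, a scavenger receptor of vessels, read 7.83 in the labelled knockout pool and 7.16 in the wild type pool. Cthrc1, a secreted protein of injured tissue, read 7.62 in the labelled knockout pool and 7.03 in the wild type pool, at the 1.5-fold limit (0.59, or 0.53 with the loess trend removed). C1ql3 was lower, at 4.36 in the labelled knockout pool, below the floor, and 5.05 in the wild type pool. It was measurable only through its wild type value, so its size is poorly bounded. Adipoq, the adipocyte hormone adiponectin, read 7.18 in the labelled knockout pool and 7.08 in the wild type pool. Macrophage markers had a median of 1.09 in the same RNA, and Msr1 and C1qa are also in that list.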
